A study of Homo sapiens with 19 samples.

Results

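The BCL2 family decides at the mitochondrion whether a cell survives or dies. This account covers 10 of its genes, named by symbol, of 20046 protein-coding genes in GENCODE release 44. There were 4 pro-survival members (BCL2, MCL1, BCL2L1 and BCL2A1) and 6 pro-death members, of which 4 are BH3-only genes (BCL2L11, PMAIP1, BBC3 and BID) and 2 are effectors (BAX and BAK1). They form a named list, drawn up with earlier results of these data known, and no measured value entered the rule. The effectors BAX and BAK open pores in the outer mitochondrial membrane, through which cytochrome c escapes and caspases are switched on. Pro-survival proteins hold the effectors and the BH3-only proteins in check, and BH3-only proteins carry stress signals that lift this restraint. Myeloid leukaemia cells are known for their dependence on BCL2 and MCL1, and the BCL2 inhibitor venetoclax is used against this disease.

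The cells were MOLM-13, an established line of human acute myeloid leukaemia. Chromatin was profiled by CUT&RUN, in which a nuclease tethered by an antibody frees the fragments that carry a histone mark. The marks were H3K27ac, found at active promoters and enhancers, H3K4me2, found at both and a substrate of the demethylase LSD1, and H3K4me3, found mainly at promoters. Cells received Corin, a dual inhibitor of the CoREST complex that blocks both its demethylase LSD1 and its histone deacetylases, or its vehicle DMSO, for 24 h. The labels give 0.1 µM for both groups, and what this dose means for DMSO is unclear. Each mark and treatment had 2 libraries, named here replicates 1 and 2, so 12 of the 19 libraries of the series entered, and 4 of ATRA with Corin, 1 of LSD1 and 2 of IgG were not analysed here. All the cells are 1 line, and the labels do not say whether replicates were separate cultures, so every p-value covers only the spread between these libraries, which may be technical.

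The data are peak lists, 1 per library, without reads. The measure used is the number of bp under peaks in the window that reaches 10 kb to each side of a gene's transcription start site (TSS). It counts how much sequence a mark's peaks cover, not how strong the mark is. Groups are called separate where both Corin libraries lie above, or both below, both DMSO libraries. An exact two-sided permutation test of 2 libraries against 2 cannot give a p below 0.333, so no single value can pass 0.05. The lists were longer after Corin for every mark, which moves with every count below: 34424 and 30029 H3K27ac peaks against 17599 and 19995 in DMSO, 41152 and 40042 H3K4me2 peaks against 30896 and 32299, and 11757 and 11883 H3K4me3 peaks against 11104 and 11343. The part of list length in the differences was not tested beyond a comparison at a matched number of peaks, given beside the results, stricter lists and libraries centred on their median. Of 8 myeloid genes, 6 had an H3K27ac peak within 1 kb of the TSS in all 4 libraries, and of 8 genes of other lineages none had one in any library.

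Peaks stood at most members already in DMSO. H3K4me2 peaks lay within 1 kb of the TSS of 10 of 10 members in all 4 libraries, where 58.8% of all protein-coding genes had them. H3K4me3 did so at 9 of 10 members, against 48.3% of all genes. BCL2A1 was the exception, with no H3K4me3 peak in its window in any library. H3K27ac was sparser: within 1 kb of the TSS both DMSO libraries had a peak only at BCL2 and MCL1, and both Corin libraries had one at 7 members (these and BCL2L1, PMAIP1, BID, BAX and BAK1). Over all genes these shares were 26.4% in both DMSO and 37.7% in both Corin libraries.

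The promoter sequences of the member without H3K4me3 and of a member covered by it throughout are shown because they differ in CpG content, a known correlate of this mark. RefSeq promoter entries (GRCh38.p14) began at the TSS used here for 8 of the 10 members. Each sequence is the 250 bases before the TSS on the gene's strand, 5′ to 3′, with CpG pairs in capitals. That of BCL2A1 is chr15:79971197-79971446 on the minus strand, and that of BCL2L11 is chr2:111120664-111120913 on the plus strand.
BCL2A1: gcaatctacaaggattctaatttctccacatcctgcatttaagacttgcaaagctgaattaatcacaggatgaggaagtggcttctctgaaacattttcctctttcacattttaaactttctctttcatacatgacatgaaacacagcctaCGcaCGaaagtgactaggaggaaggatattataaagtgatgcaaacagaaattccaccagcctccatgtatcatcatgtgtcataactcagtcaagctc
BCL2L11: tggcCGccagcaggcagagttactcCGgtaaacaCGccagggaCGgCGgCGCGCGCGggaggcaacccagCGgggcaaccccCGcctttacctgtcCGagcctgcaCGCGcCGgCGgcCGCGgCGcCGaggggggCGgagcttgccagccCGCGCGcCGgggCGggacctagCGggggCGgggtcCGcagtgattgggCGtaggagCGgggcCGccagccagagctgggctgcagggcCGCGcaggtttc
The BCL2A1 stretch held 2 CpG and the BCL2L11 stretch 34. The others held 5 (BAK1), 12 (BCL2L1), 24 (BCL2), 25 (BAX), 30 (BID) and 36 (PMAIP1), and the median of 14570 matched protein-coding genes was 19. Among those genes, both DMSO libraries had an H3K4me3 peak within 1 kb at 1.72% of the 1685 promoters with at most 2 CpG, at 32.6% of the 4213 with 3 to 15 and at 71.1% of the 8672 with 16 or more. BCL2A1, without an H3K4me3 peak, thus fell among the promoters that seldom had one, whereas BAK1, with 5 CpG, carried a peak in all 4 libraries.

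The pro-survival members are shown first. BCL2 binds and restrains the effectors and the BH3-only proteins, and is the target of venetoclax. Its window had 4254 and 3824 bp of H3K27ac after Corin and 1313 and 1695 bp in DMSO, for replicates 1 and 2 in that order, as for all values below. Both Corin libraries lay well above both DMSO libraries, with means of 4039 ± 304 and 1504 ± 270 bp (SD, n = 2). That was 2.69 times as much, and the difference of 2535 bp exceeded that of 96.9% of the 10670 genes with H3K27ac in any library. At a matched number of peaks the values were 3497 and 3275 against 1313 and 1695 bp, still apart. H3K4me2 (7317 and 7377 against 7778 and 7212 bp) and H3K4me3 (6656 and 5912 against 6167 and 5803 bp) overlapped between the groups, and both were broad: the DMSO mean of H3K4me3 was above that of 99.1% of 11402 covered genes.

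BCL2 shows how the marks divide a promoter. H3K4me3 filled the whole 2001 bp around its TSS in all 4 libraries, while H3K4me2 covered only 12 and 130 bp of it after Corin and 122 and 318 bp in DMSO, and flanked it on both sides instead. H3K27ac within 1 kb of the TSS was 1489 and 1397 bp after Corin against 583 and 993 bp in DMSO, and more was added beside it. A region 2.377 kb upstream, chr18:63322146-63322864 (719 bp), had H3K27ac peaks in both Corin libraries (401 and 549 bp) and in neither DMSO library. All 4 H3K4me2 libraries already covered it in full, and no H3K4me3 library did. The middle 300 bases, chr18:63322356-63322655 on the strand of the gene, are shown as the stretch beside the BCL2 promoter that had H3K27ac peaks only in the Corin libraries, with matches to the PU.1 core GAGGAA and to the CCAAT box, on either strand, in capitals.
BCL2 upstream region: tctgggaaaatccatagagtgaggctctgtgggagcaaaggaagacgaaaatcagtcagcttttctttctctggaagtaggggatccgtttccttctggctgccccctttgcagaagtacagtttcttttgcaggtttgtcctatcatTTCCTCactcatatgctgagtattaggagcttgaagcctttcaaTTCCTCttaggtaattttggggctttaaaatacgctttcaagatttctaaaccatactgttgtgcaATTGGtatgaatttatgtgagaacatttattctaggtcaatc
It held 2 PU.1 cores, a pattern present in the middle 300 bases of 29.6% of all H3K27ac regions, and 1 CCAAT box, present in 28.9%. These matches describe the letters only and do not show that a factor binds.

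The rest of BCL2 is a very long intron. Over the whole gene of 196.783 kb, H3K27ac covered 7000 and 6426 bp after Corin and 4256 and 2714 bp in DMSO, groups that were again apart. H3K4me2, which overlapped in the window, was apart over the gene, with 8462 and 7641 against 6406 and 6910 bp. Its intronic peaks mostly differed between libraries: a region 156.493 kb from the TSS had 1060 and 1297 against 0 and 1184 bp, and 3 others stood in Corin replicate 1 alone. A region 81.892 kb from the TSS was present in all 4 libraries, with 1054 and 1449 against 1082 and 984 bp. The H3K27ac lists gave 30 regions at the locus, of which 3 were present in all 4 libraries, 2 only in both Corin libraries and 1 only in both DMSO libraries. Besides the promoter, the regions present throughout lay in the intron 105.296 kb (1099 and 640 against 1008 and 488 bp) and 121.321 kb (478 and 351 against 768 and 350 bp) from the TSS, so these intronic peaks did not part the groups. The region seen only in DMSO, chr18:63125429-63125859 in the last exon, had 333 and 431 bp there. It was the single such region at any member in any mark. The other 24 were seen in 1 library or in a mixture of groups, which shows how much small peaks vary between libraries.

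**Figure D1:**
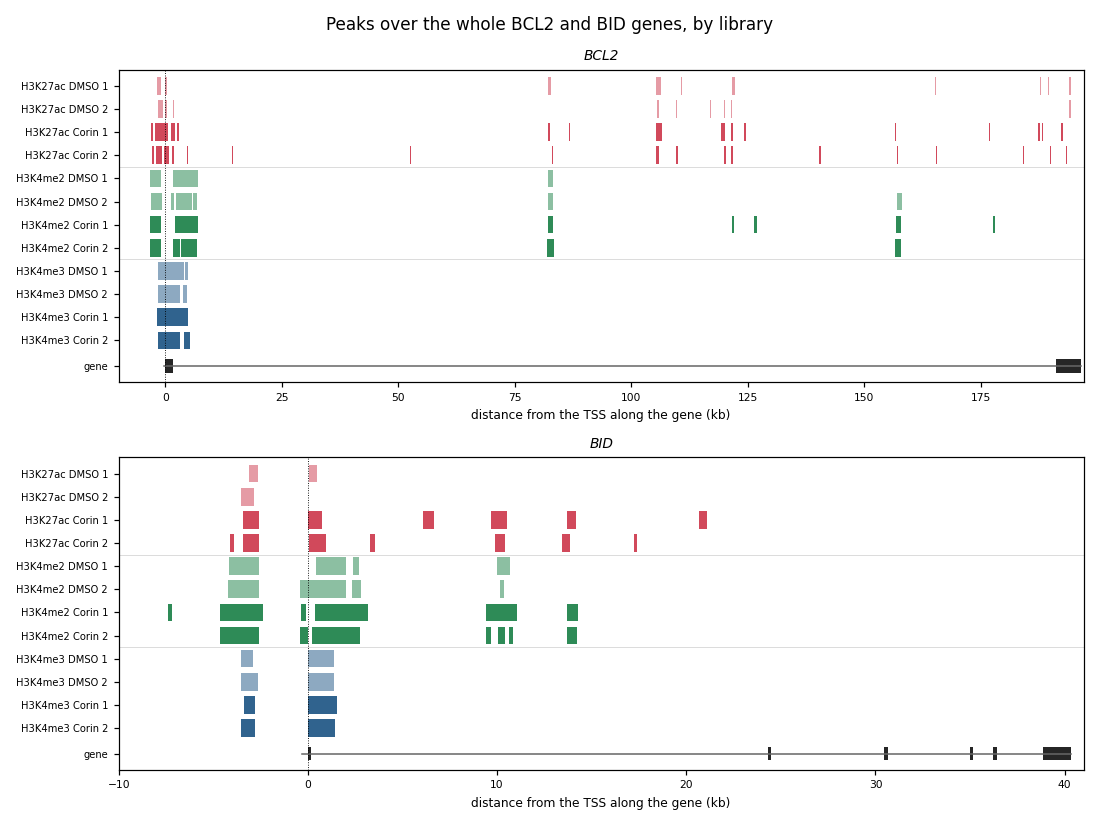
Peaks of each of the 12 libraries (rows, darker for Corin) over BCL2 (above) and BID (below), against the distance from the TSS in kb along the gene; black blocks are exons of the MANE Select transcript and the line is the gene. At BCL2 the intronic H3K27ac peaks near 105.296 and 121.321 kb appear in all 4 libraries, and at BID the intron near 13.433 kb has H3K27ac and H3K4me2 peaks in the Corin libraries only.

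MCL1 encodes a short-lived pro-survival protein on which many leukaemia cells rely. Its H3K27ac was modest, 871 and 838 bp after Corin against 439 and 735 bp in DMSO. The groups were apart, but by 267.5 bp, less than the median difference of 445 bp over all covered genes, and at a matched number of peaks the Corin values of 0 and 838 bp overlapped those of DMSO. Over the whole gene record H3K27ac was 2023 and 1402 against 845 and 735 bp, a 2.17-fold difference of 922.5 bp with the groups apart. H3K4me2 was higher in both Corin libraries (3780 and 3486 against 2997 and 3102 bp), also at a matched number, and H3K4me3 overlapped (2743 and 2534 against 2591 and 2991 bp). An H3K27ac region of 564 bp, chr1:150561061-150561624, was present in both Corin libraries (312 and 564 bp) and neither DMSO library. It lies 17.986 kb downstream of the TSS, inside the MCL1 gene record but outside its MANE Select transcript, and the nearest coding TSS is that of ADAMTSL4, so it cannot be given to MCL1 from position alone.

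BCL2L1 encodes BCL-XL, a pro-survival protein best known from platelets and red-cell precursors. It had the least H3K4me2 of the members in DMSO, 2146 and 1740 bp, and 3834 and 3346 bp after Corin. The means of 3590 ± 345 and 1943 ± 287 bp (SD, n = 2) differed 1.85-fold, and 96.7% of 14255 covered genes differed by less. At a matched number of peaks the values were 3401 and 2243 against 2146 and 1740 bp, apart by a smaller gap. The H3K4me2 within 1 kb of the TSS overlapped between groups (1715 and 1111 against 1421 and 1444 bp), so the added length lay farther out. H3K27ac was low, 486 and 792 bp against 0 and 280 bp, also apart. H3K4me3 overlapped (1311 and 1255 against 1348 and 1125 bp).

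BCL2A1 encodes BFL-1, a pro-survival protein of blood cells and a known target of NF-κB. Its H3K27ac was 2553 and 1914 bp after Corin against 1020 and 830 bp in DMSO, and its H3K4me2 5110 and 4736 against 3753 and 4014 bp. Both marks were apart between the groups, also at a matched number of peaks. Nearly all of this H3K27ac lay away from the promoter, in a region 6.142 kb upstream, chr15:79977338-79979807, with 2162 and 1914 against 1020 and 830 bp. Only Corin replicate 1 had an H3K27ac peak over the TSS itself (391 bp). The same upstream region had nearly equal H3K4me2 in all 4 libraries, 2469 and 2392 against 2433 and 2376 bp, whereas H3K4me2 within 1 kb of the TSS was 1345 and 1292 against 903 and 914 bp. An intronic region, chr15:79968289-79969620, had 1296 and 1052 against 213 and 724 bp of H3K4me2. Thus H3K27ac was longer upstream, and H3K4me2 at the promoter and in the intron. The middle 300 bases of the upstream region, chr15:79978423-79978722 on the strand of the gene, are shown because they carry the H3K27ac of this gene, with matches to the AP-1 motif TGACTCA and to the CCAAT box, on either strand, in capitals.
BCL2A1 upstream region: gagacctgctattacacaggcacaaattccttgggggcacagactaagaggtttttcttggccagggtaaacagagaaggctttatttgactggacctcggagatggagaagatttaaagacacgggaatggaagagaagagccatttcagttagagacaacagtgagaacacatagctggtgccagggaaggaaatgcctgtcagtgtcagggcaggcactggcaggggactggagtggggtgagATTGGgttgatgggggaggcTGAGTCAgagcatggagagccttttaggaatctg
It held 1 AP-1 match, found in 6.85% of H3K27ac regions, and 1 CCAAT box.

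**Figure D2:**
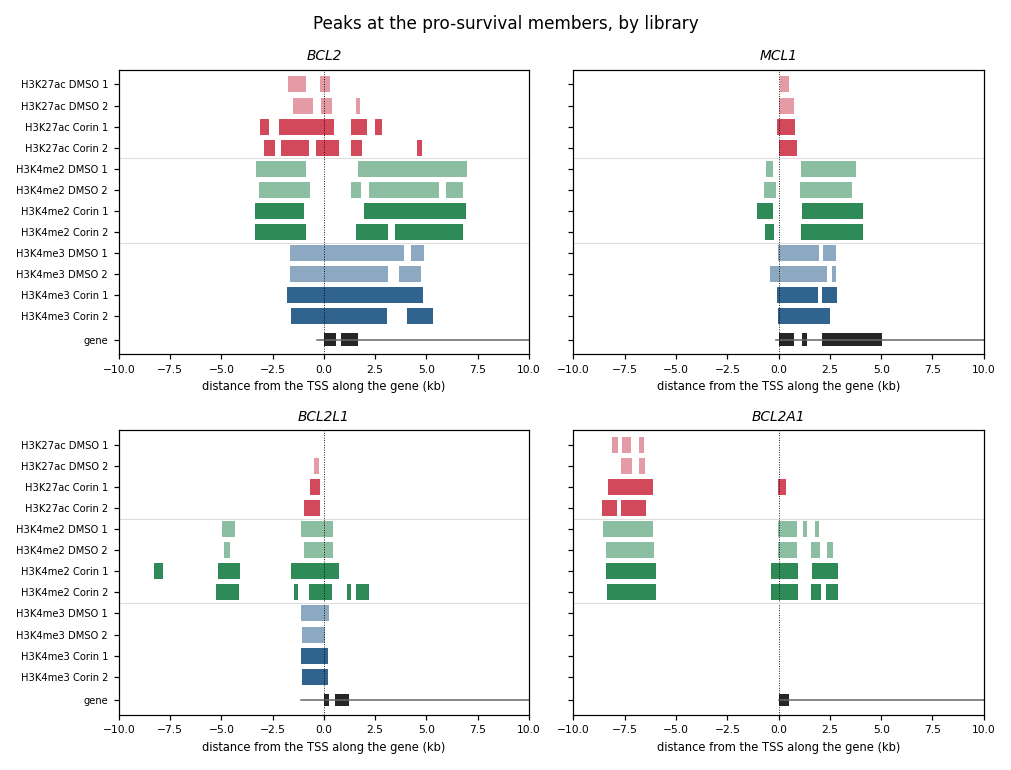
Peaks of the 12 libraries (rows, darker for Corin) within 10 kb of the TSS of the 4 pro-survival members, against distance from the TSS in kb along the gene; black blocks are exons and the line is the gene. H3K27ac spreads around the BCL2 promoter after Corin, lies 6.142 kb and farther upstream at BCL2A1, and the H3K4me3 rows of BCL2A1 are empty.

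Among the pro-death genes, BCL2L11 encodes BIM, a BH3-only protein that binds all pro-survival relatives. It was the 1 member whose H3K27ac was not higher after Corin. A single peak of 219 bp stood in DMSO replicate 1, and the other 3 libraries had none. Yet its promoter was among the broadest for methylation: H3K4me2 covered 6599 and 6214 bp after Corin and 6552 and 6558 bp in DMSO, and the DMSO mean was above that of 96.9% of covered genes. H3K4me3 covered 5670 and 5411 against 5331 and 4592 bp, which were apart, though not at a matched number of peaks. Both methyl marks overlay its TSS in all 4 libraries, unlike at BCL2.

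PMAIP1 encodes NOXA, a BH3-only protein that neutralises MCL1 and BFL-1. Its H3K27ac was 1899 and 931 bp after Corin against 0 and 819 bp in DMSO. The groups were apart by the narrow gap between the second replicates, and overlapped at a matched number of peaks (938 and 345 against 0 and 819 bp). H3K4me2 was 5621 and 3317 against 3479 and 3362 bp, so only Corin replicate 1 was high. H3K4me3 overlapped (2026 and 1927 against 2101 and 1892 bp). A region 7.152 kb downstream, chr18:59907148-59907733, had H3K27ac peaks in both Corin libraries (503 and 586 bp) and neither DMSO library, and H3K4me2 peaks in 3 of 4 libraries (all but DMSO replicate 2).

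BBC3 encodes PUMA, a BH3-only protein induced by DNA damage. Its H3K27ac was 1653 and 2611 bp after Corin against 1265 and 1608 bp in DMSO, and its H3K4me2 7385 and 6645 against 6090 and 6300 bp. Both were apart, with the lower Corin H3K27ac library just above the higher DMSO one, a gap well within the spread of either group. H3K4me3 was 4130 and 5161 against 4601 and 5263 bp, overlapping. No H3K27ac peak lay within 1 kb of its TSS except in Corin replicate 2.

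BID encodes the BH3-only protein that caspase-8 cleaves, which links death receptors to the mitochondrion. Its H3K27ac was 2459 and 2388 bp after Corin against 922 and 729 bp in DMSO, or 2424 ± 50.2 and 825.5 ± 136 bp (SD, n = 2), a 2.94-fold difference. At a matched number of peaks these were 1152 and 1889 against 922 and 729 bp, still apart. H3K4me2 was 6143 and 5272 against 3416 and 4492 bp, and 97.3% of covered genes differed by less. H3K4me3 overlapped (2122 and 2142 against 2013 and 2253 bp). Over the whole gene H3K27ac was 3167 and 2384 bp against 446 and 0 bp.

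The longer H3K27ac of BID was spread over the promoter, an upstream region and the first intron. Within 1 kb of the TSS it was 745 and 916 against 446 and 0 bp, and 2.597 kb upstream a region present in all 4 libraries had 806 and 860 against 476 and 729 bp. In the first intron, the region chr22:17760285-17761036, 13.433 kb from the TSS, had H3K27ac in both Corin libraries (510 and 442 bp) and neither DMSO library, and the overlapping chr22:17760216-17760794 had H3K4me2 in both Corin libraries (579 and 538 bp) and neither DMSO library. It was the only place at any member where both marks were seen in the Corin libraries alone. A second region, chr22:17763924-17764814, had H3K27ac in both Corin libraries (891 and 542 bp) and neither DMSO library, but H3K4me2 in all 4. The middle 300 bases of the first, chr22:17760511-17760810 on the strand of the gene, are shown because 2 marks parted the groups there, with matches to the RUNX core TGTGGT and the PU.1 core GAGGAA, on either strand, in capitals.
BID intronic region: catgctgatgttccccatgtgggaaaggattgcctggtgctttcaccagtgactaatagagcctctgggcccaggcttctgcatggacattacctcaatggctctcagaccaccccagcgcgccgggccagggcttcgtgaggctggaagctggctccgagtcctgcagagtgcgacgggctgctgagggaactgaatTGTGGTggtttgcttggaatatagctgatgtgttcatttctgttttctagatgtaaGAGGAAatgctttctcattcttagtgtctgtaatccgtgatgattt
It held 1 match to each. RUNX cores were present in 8304 of the 41587 H3K27ac regions and PU.1 cores in 12323.

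BAX is a cytosolic effector that moves to mitochondria when activated. Its H3K27ac was the highest of the members in DMSO, 2270 and 3543 bp, and 3958 and 4195 bp after Corin, apart also at a matched number of peaks. Much of this lay past the end of the gene, in a region 7.031 kb downstream, chr19:48961906-48966575, for which the nearest coding TSS is that of FTL, the ferritin light chain. That region as a whole had 4638 and 4308 bp after Corin against 2969 and 4067 bp in DMSO. Within 1 kb of the TSS it was 942 and 1014 against 0 and 849 bp. H3K4me2 overlapped (4133 and 4183 against 3894 and 4390 bp). For H3K4me3 BAX stood out among the members, 2013 and 1775 bp after Corin and 960 and 919 bp in DMSO, or 1894 ± 168 and 939.5 ± 29.0 bp (SD, n = 2), a 2.02-fold difference that exceeded those of 99.1% of covered genes. Most of it came from chr19:48963980-48964790, 9.105 kb downstream, with 811 and 619 bp in the Corin libraries and none in DMSO, again nearest to FTL. Over the BAX gene alone H3K4me3 was 1202 and 1156 against 915 and 919 bp, 1.29-fold and still apart.

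The BAX promoter is shown for its repeated E-box, the sequence CACGTG, in capitals in the 250 bases before the TSS, chr19:48954625-48954874 on the plus strand.
BAX: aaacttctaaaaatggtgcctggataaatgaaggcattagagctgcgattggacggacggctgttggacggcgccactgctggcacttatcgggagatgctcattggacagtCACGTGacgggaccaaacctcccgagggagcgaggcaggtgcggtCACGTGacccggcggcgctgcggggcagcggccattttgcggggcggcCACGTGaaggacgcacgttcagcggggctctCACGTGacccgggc
It held 4 E-boxes, while 7.99% of the 14570 matched promoters held any and none of the other 7 matched members did.

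BAK1 encodes BAK, the effector that resides in the mitochondrial membrane. Its H3K27ac was 3672 and 2335 bp after Corin against 0 and 1353 bp in DMSO, a difference of 2327 ± 1345 bp (SD of the difference). The groups were apart, with a wide spread in both, and overlapped at a matched number of peaks (1053 and 1412 against 0 and 1089 bp). H3K4me2 was 4115 and 3704 against 3181 and 3251 bp, and H3K4me3 1477 and 1492 against 1029 and 1239 bp, both apart with and without the matching. BAK1 was the only member higher in both Corin libraries for all 3 marks, which held for 876 of the 9948 genes covered by all 3 (8.81%).

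**Figure D3:**
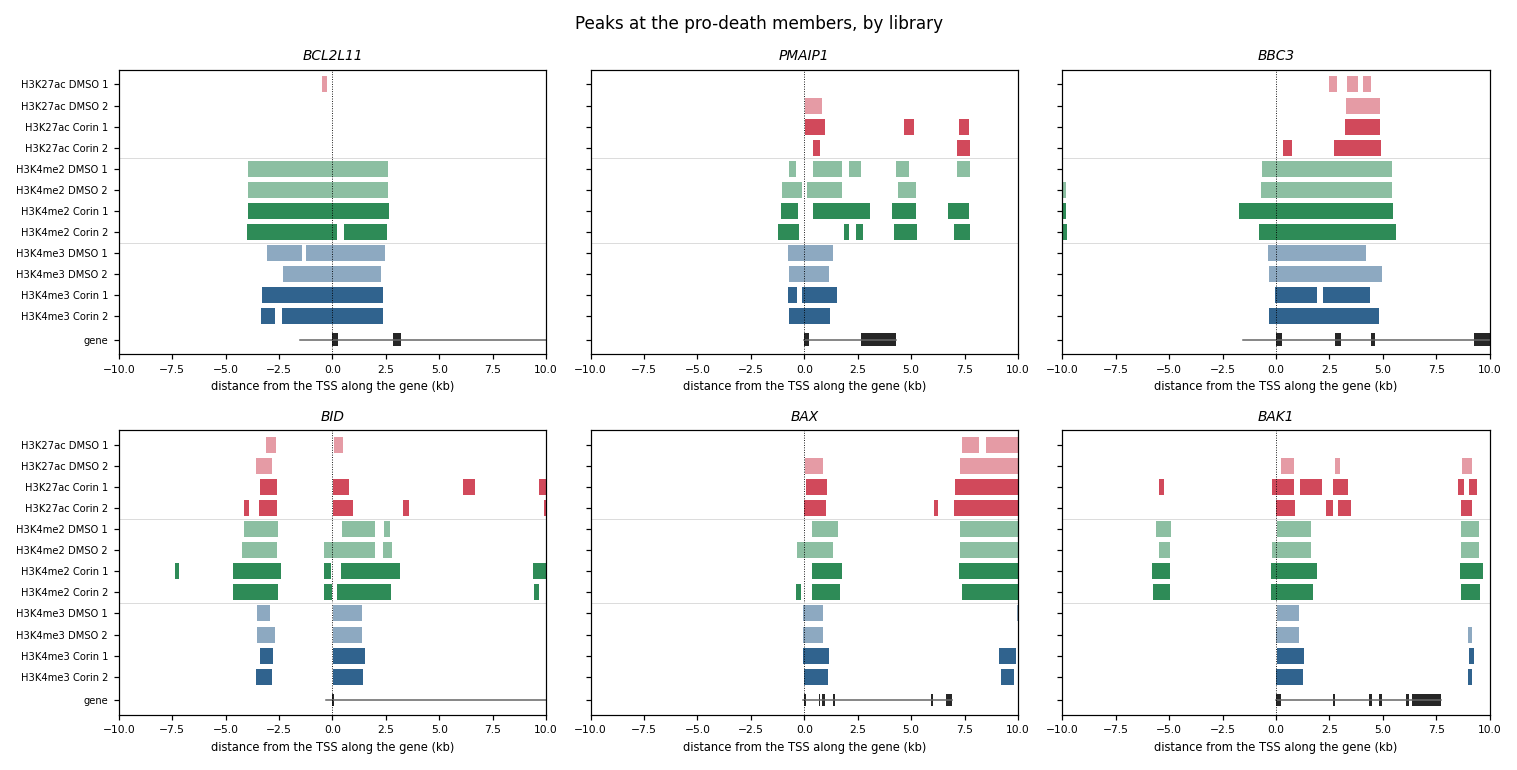
Peaks of the 12 libraries (rows, darker for Corin) within 10 kb of the TSS of the 6 pro-death members, against distance from the TSS in kb along the gene; black blocks are exons and the line is the gene. BCL2L11 has broad H3K4me2 and H3K4me3 with almost no H3K27ac, and the H3K4me3 peak 9.105 kb downstream of BAX appears in both Corin libraries only.

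Across the family, both Corin libraries exceeded both DMSO libraries in H3K27ac at 9 of 10 members, all 4 pro-survival and 5 of 6 pro-death genes. It was lower at none. This was the direction of genes at large: of 10670 genes with H3K27ac in any library 54.5% were higher and 0.59% lower. At a matched number of peaks 6 members were higher (BCL2, BCL2L1, BCL2A1, BBC3, BID and BAX), against 35.1% of genes. For H3K4me2, 6 of 10 members were higher (MCL1, BCL2L1, BCL2A1, BBC3, BID and BAK1), 3 of 4 pro-survival and 3 of 6 pro-death, and none lower. The shares over 14255 genes were 39.6% higher and 3.91% lower, and at a matched number the count stayed at 6, against 31.2% of genes. For H3K4me3, 3 of the 9 covered members were higher, all pro-death (BCL2L11, BAX and BAK1), and none lower, where 25.8% of 11402 genes were higher and 8.38% lower. Matching left 2 (BAX and BAK1), against 24.6% of genes. Compared by replicate number, the pro-survival BCL2 was also higher in both pairs (6656 and 5912 against 6167 and 5803 bp). BBC3 was lower in both pairs (4130 and 5161 against 4601 and 5263 bp). Without DMSO replicate 1, 6 of the 9 were higher in H3K4me3 (BCL2, BCL2L1, BCL2L11, PMAIP1, BAX and BAK1) and 3 lower (MCL1, BBC3 and BID), where 37.0% of covered genes were higher and 26.6% lower.

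The sizes are given by class. The median difference between the Corin and DMSO means was 1087.75 bp for H3K27ac over the 10 members, 903.75 bp in pro-survival and 1087.75 bp in pro-death members, and 445 bp over all covered genes. For H3K4me2 it was 756.75 bp over the members, 811.5 and 756.75 bp by class, and 230 bp over covered genes. For H3K4me3 it was 46.5 bp over the 9 covered members, 46.5 bp in the covered pro-survival and 174.75 bp in the pro-death members (652.5 bp in the effectors), and 63.5 bp over covered genes. Most of the BAX part of the effector value came from the downstream region nearest to FTL. Over the gene bodies alone the H3K4me3 differences were 262 bp (BAX) and 228 bp (BAK1). At a matched number of peaks the H3K27ac median was 593.5 bp over the members (621.75 bp pro-survival, 593 bp pro-death) and 263.5 bp over covered genes. The H3K4me2 median was then 743.25 bp over the members and 133 bp over covered genes. With and without the matching, the H3K27ac and H3K4me2 medians of both classes were positive and above those of all covered genes, and the ranges of the classes overlapped. These differences in bp are not scaled to the coverage in DMSO. Whether the classes differ was not tested.

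**Figure D4:**
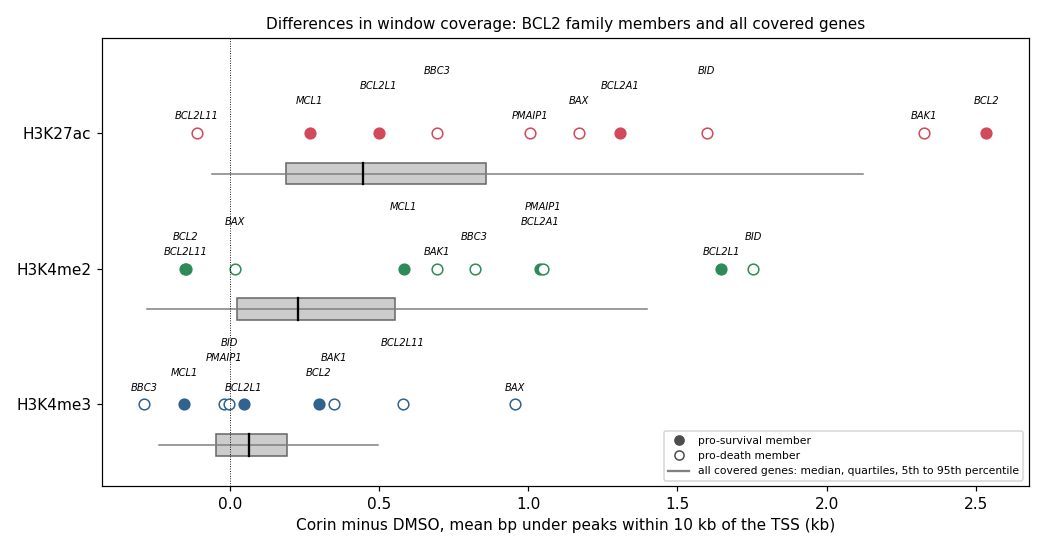
Difference between the Corin and DMSO means in kb of peak coverage within 10 kb of the TSS (x axis), for each covered member (filled for pro-survival, open for pro-death) and mark (rows); grey boxes and lines give the quartiles and the 5th to 95th percentile of all covered genes. BCL2 and BAK1 lie farthest right for H3K27ac, BID and BCL2L1 for H3K4me2, and BAX for H3K4me3.

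limma, run on log2(bp + 1000) across all genes with a mean of at least 500 bp, called no member for any mark at a Benjamini-Hochberg adjusted p under 0.05. For H3K27ac it tested 8 members (not BCL2L1 and BCL2L11), and called 2.32% of 7273 genes higher. The median log2 difference of the genes tested was 0.41. MCL1 (0.23), BBC3 (0.35) and BAX (0.40) lay below it, and the other members tested above it. The members nearest to the threshold by limma were BCL2 (log2 difference 1.01, SE 0.21, adjusted p = 0.051), BID (0.91, SE 0.21, adjusted p = 0.0574) and BAK1 (1.36, SE 0.39, adjusted p = 0.0829). For H3K4me2, 0.213% of 13160 genes were called, and BCL2L1 came nearest among the 10 members (0.64, SE 0.12, limma adjusted p = 0.111). For H3K4me3, 0% of 10301 genes were called, and BAX came nearest among 9 members (0.58, SE 0.08, limma adjusted p = 0.233). At an unadjusted limma p under 0.05, BCL2, BCL2A1, BID and BAK1 were higher for H3K27ac (28.9% of genes tested), 3 of 10 members for H3K4me2 (14.2%) and 2 of 9 for H3K4me3 (5.83%), and none lower. PMAIP1 also had such a p for H3K27ac, but its DMSO mean of 409.5 bp was under the filter, so it entered only through its Corin libraries and the p supports nothing.

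With the replicate number as a block, limma did call members. H3K27ac rose at BCL2 (adjusted p = 0.0269), BAK1 (adjusted p = 0.0334) and BID (adjusted p = 0.0369), 3 of 8, where 10.7% of genes were called higher. H3K4me2 rose at BCL2L1 (adjusted p = 0.00453) and BID (adjusted p = 0.0373), 2 of 10, against 6.21% of genes. Without the block and with peak numbers matched, limma called no member: the H3K27ac log2 difference was 0.81 at BCL2, 0.45 at BID and 0.62 at BAK1, with adjusted p = 0.271, 0.45 and 0.494. The H3K4me2 log2 difference at BCL2L1 was then 0.36 (limma adjusted p = 0.598) and at BID also 0.36 (limma adjusted p = 0.46). Centring the libraries on their median, without the block, gave H3K27ac log2 differences of 0.60 at BCL2, 0.50 at BID and 0.95 at BAK1. Their limma adjusted p-values were 0.325, 0.505 and 0.424. For H3K4me2 centring gave 0.52 at BCL2L1 and 0.32 at BID (limma adjusted p = 0.128 and 0.259). Leaving out DMSO replicate 1, which had no H3K27ac at BAK1, gave a log2 difference of 0.75 there, and for H3K4me2 at BID 0.29. For H3K4me3 the block called no member and 0% of genes. The block leaves 1 residual degree of freedom per gene, so these calls lean on the spread shared across genes.

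**Figure D5:**
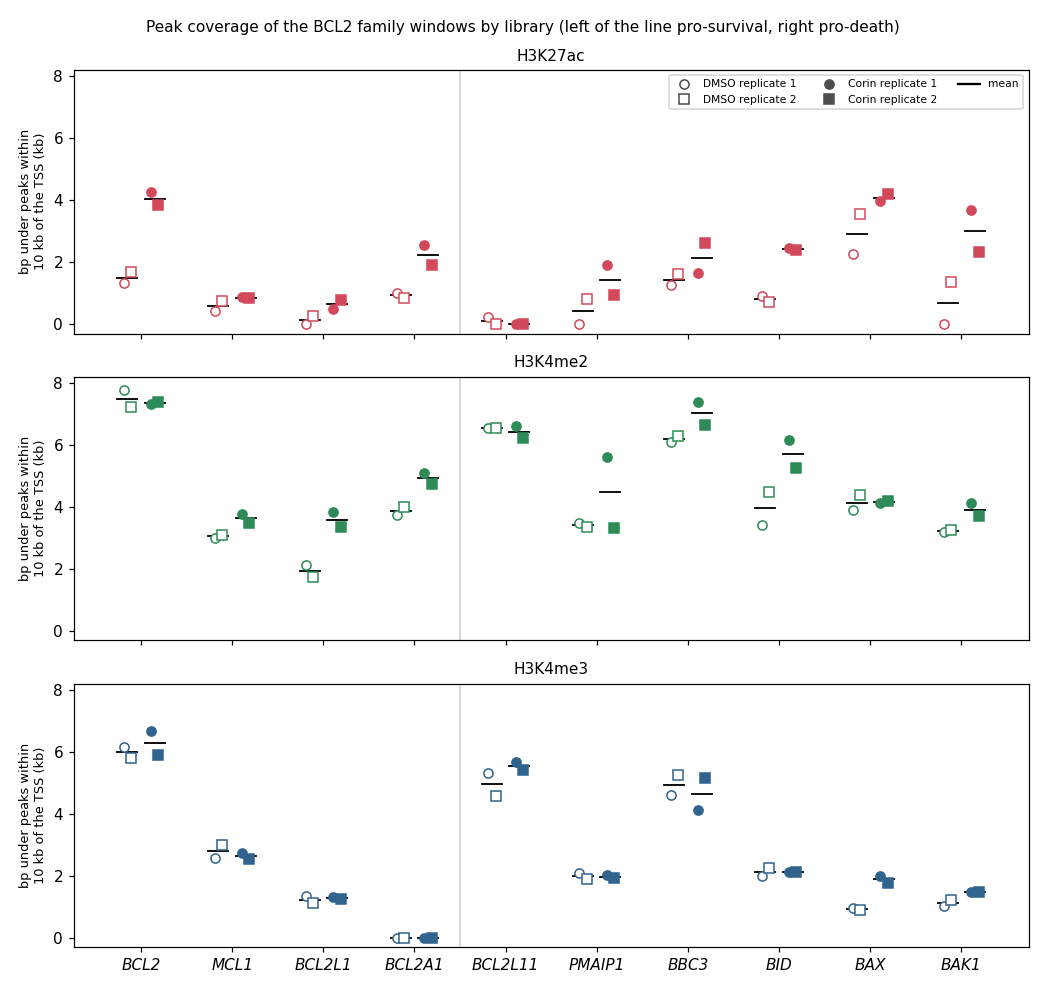
Peak coverage in kb within 10 kb of the TSS of each member (x axis) in each of the 4 libraries per mark (panels); open symbols are DMSO, filled are Corin, circles replicate 1 and squares replicate 2, and bars are group means. Both filled H3K27ac symbols lie above both open ones at every member but BCL2L11.

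Single regions gave few all-or-none differences. The member loci held 63 H3K27ac regions, 38 H3K4me2 regions and 14 H3K4me3 regions, and 8, 26 and 11 of them were present in all 4 libraries. Present in both Corin and neither DMSO library were 6 of 63 for H3K27ac, 1 of 38 for H3K4me2 and 1 of 14 for H3K4me3, against 11.5%, 9.64% and 1.49% of all regions. Present in both DMSO and neither Corin library were 1, 0 and 0, against 0.18%, 0.158% and 0.289%. The H3K27ac share seen only after Corin was 9.52% at the members. It was 8.33% (3 of 36) against 4.51% of all regions at a matched number of peaks. Without Corin replicate 1 it was 39.6% (21 of 53) against 33.8%, and without Corin replicate 2 38% (19 of 50) against 42.6%. Without DMSO replicate 1 it was 13.3% (8 of 60) against 16.4%, and without DMSO replicate 2 23.3% (14 of 60) against 20.6%. At BCL2 and BCL2A1, an H3K27ac region shared by all libraries was longer after Corin. The one over the BCL2 TSS covered 2686 and 2480 bp after Corin and 1313 and 1485 bp in DMSO. Both other shared regions of BCL2, in the intron, overlapped between the groups.

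The order of the members differed by mark. In DMSO, BAX led H3K27ac and did not overlap the next, BCL2, which overlapped BBC3. From BCL2A1 down to BCL2L11, the lowest, each member overlapped the next. After Corin, BAX and BCL2 led and overlapped. For H3K4me2 in DMSO the order began with BCL2, BCL2L11 and BBC3, each apart from the next, and these 3 genes also led H3K4me3, with BCL2L11 and BBC3 overlapping. DMSO replicate 1 was the lower of the DMSO libraries for H3K27ac at 7 members, and had no H3K27ac in the windows of BCL2L1, PMAIP1 and BAK1. Without that library the count of members with higher H3K27ac was still 9, where 63.2% of covered genes were higher and 7.15% lower.

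The gene whose 12 window values lay nearest to a member's, by root mean square difference, was PGP for BCL2 (525 bp), STIP1 for MCL1 (277 bp), TAF1B for BCL2L1 (273 bp), SIGLEC7 for BCL2A1 (252 bp) and MYC for BCL2L11 (607 bp). For PMAIP1 it was AP2B1 (346 bp), for BBC3 PSME2 (496 bp), for BID TIFA (329 bp), for BAX TUBGCP3 (497 bp) and for BAK1 MTM1 (383 bp). The runners-up were DVL2, SOGA1, AKAP11, HNMT, SOX4, ZNRF2, LMO4, C15orf39, PHYKPL and AP5S1 in the same order. No member was the nearest gene of another.

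The wider pathway was described through 38 genes: 11 other BCL2 relatives, 14 genes of mitochondrial apoptosis, 9 of the death receptor arm and 4 of the stress response. H3K27ac was higher in both Corin libraries at 22 of the 31 covered genes and lower at none, against 54.5% and 0.59% of all covered genes. The median difference was 582.5 bp over those covered and 445 bp over all covered genes, and 249.25 and 263.5 bp at a matched number of peaks. H3K4me2 was higher at 21 of 35 and lower at 1 (VDAC2, a channel of the outer membrane), against 39.6% and 3.91%, with a matched median of 195.5 bp and 133 bp over covered genes. H3K4me3 was higher at 8 of 32, near the 25.8% of all covered genes, and lower at 2 (BCL2L2 and BIRC2), against 8.38%. With peak numbers matched, 13 of 30 were higher for H3K27ac (35.1% of genes), 13 of 34 for H3K4me2 (31.2%) and 8 of 31 for H3K4me3 (24.6%). All 6 covered relatives were higher in H3K27ac (BCL2L2, BCL2L12, BCL2L13, BAD, BIK and BMF), and BCL2L12, BAD and BIK overlapped at a matched number. BMF, a BH3-only gene, had 5526 and 4497 against 1463 and 3466 bp, and 5179 and 3359 against 1463 and 2846 bp at a matched number. BIK, another, had 3270 and 1497 against 490 and 615 bp, and 1106 and 414 against 490 and 615 bp at a matched number. BCL2L2, which encodes the pro-survival protein BCL-W, had 2248 and 872 bp against none in DMSO, while its H3K4me3 was lower in both Corin libraries (3083 and 3314 against 3459 and 3564 bp).

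The death receptor arm feeds into BID. H3K4me2 at TNFSF10, which encodes the ligand TRAIL, was 3647 and 4195 bp after Corin against 1533 and 1984 bp in DMSO. At its receptor genes it was 7231 and 7190 against 4992 and 4133 bp (TNFRSF10A) and 10171 and 9405 against 6852 and 6773 bp (TNFRSF10B). At a matched number of peaks these were 2834 and 4195 against 1533 and 1984 bp, 6862 and 5843 against 4992 and 4133 bp, and 10171 and 9405 against 6852 and 6773 bp, all 3 still apart. TNFRSF10B was also higher in H3K27ac (4636 and 4046 against 2037 and 2699 bp) and in H3K4me3 (2055 and 2048 against 1907 and 1858 bp). At CASP8, whose product cleaves BID, H3K4me3 was 1086 and 1082 against 668 and 654 bp. At APAF1, which assembles the apoptosome, H3K27ac was 2654 and 2212 against 1093 and 1285 bp. Both were the same at a matched number. The other marks overlapped at both genes, among them H3K27ac at CASP8 (2398 and 1392 against 1435 and 1210 bp). H3K4me2 at APAF1 overlapped with a lower Corin mean (3993 and 2169 against 3524 and 3393 bp). In the death receptor arm H3K4me2 overlapped at FAS, FADD and CASP8. Of the other genes of mitochondrial apoptosis, H3K27ac was also higher at CYCS, CASP9, DIABLO, VDAC1 and VDAC2, among others, and of the stress response genes at MDM2, MDM4 and CDKN1A, of which CASP9, DIABLO and CDKN1A overlapped at a matched number. limma called none of the 38 without the block, except TNFSF10 for H3K4me2 once the libraries were centred on their median (adjusted p = 0.0448). In that setting 0.889% of 13160 genes were called higher. With the block, H3K27ac rose at BIK (adjusted p = 0.0333), where 10.7% of genes were called higher, and H3K4me2 at TNFSF10 (adjusted p = 0.000327), TNFRSF10A (adjusted p = 0.0021), TNFRSF10B (adjusted p = 0.00226) and MDM4 (adjusted p = 0.0138), against 6.21% of genes. BCL2L2 was also called for H3K27ac, but it passed the filter through its Corin libraries alone, so that call is not used. Without the block and at a matched number of peaks, limma called none of them, and the log2 difference dropped from 1.07 to 0.15 at BIK and from 0.62 to 0.06 at MDM4, whose H3K4me2 then overlapped between the groups (2630 and 1932 against 1862 and 2406 bp).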

How the data were processed

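CUT&RUN used pAG-MNase, with paired reads of 150 bp, per the labels' protocols; beyond a stated minimum the depth of each library is unknown, so no interval that needs it was computed. The submitters' processing notes name Trim Galore, Bowtie2, Picard and MACS2 and the build GRCh38 (hg38), without versions or order. The authors deposited 1 peak list per library with a score for each peak, never below 50, whose definition is not given in the sources used here; it was used only to rank and filter peaks within a list. No peak of 292523 ended past an hg38 chromosome end. No IgG library entered.

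bp under peaks were summed per gene (Python 3.11.15, numpy 2.4.6) at the MANE Select TSS, or the Ensembl canonical one for 985 genes. Positions count from 1. The 4 lists of a mark were merged into regions, and 1 bp of overlap counted as presence. limma 3.58.1 (R 4.3.3) used eBayes with a trend and was tested on simulated data. Across covered genes, deviations from the group mean in Corin and DMSO libraries of one number correlated at 0.285 (H3K27ac), 0.297 (H3K4me2) and 0.231 (H3K4me3). A block for the number was fitted as an alternative, although no label states what a number stands for. The main limma fit, the calls of separate groups and the permutation test did not use the number. The members and gene lists were chosen with earlier results of these data known. Named genes are the 10 members, their 2 most alike genes, and pathway genes whose groups did not overlap or that passed limma; some of these are counted but not reported by name here. Alternatives were matched and stricter peak lists, other windows, the gene's 5′ end, the block, a pseudocount of 200 bp, no filter, centring, and leaving out each library.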

Additional observations from a re-analysis of the deposited data

How the results depend on the processing

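The limits are those of 2 libraries a group and of peak lists without reads: coverage depends on where a caller draws its threshold, and an absent peak does not show an absent mark. Counts of members with higher coverage stayed within 1.5 times of the reported count under lists cut to a matched number of peaks, stricter lists, the 5 kb window, the gene's 5′ end, the gene body and the replicate block. Leaving out each library gave 9 to 9 (H3K27ac), 6 to 8 (H3K4me2) and 3 to 6 (H3K4me3) higher, and 0 to 1, 0 to 2 and 1 to 3 lower. The 6 for H3K4me3 arose without DMSO replicate 1. Without that library 63.2% (H3K27ac), 47.1% (H3K4me2) and 37.0% (H3K4me3) of covered genes were higher, and 7.15%, 21.4% and 26.6% lower. Shares without each of the other libraries are not given here. The 5 kb window gave 1 member lower in H3K4me2, and the replicate block, read as both same-numbered pairs agreeing in sign, 1 lower in H3K4me3. MCL1 H3K27ac reversed to -168 bp at a matched number of peaks and to -168 bp with the stricter lists, where the peak of Corin replicate 1 dropped out.

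Over all alternatives, 274 differences of single members moved by less than 1 SD of the difference, 24 moved by more, and the 2 for MCL1 were the only changes of sign where the groups had been apart. Where they overlapped, 17 changed sign, among them BCL2 H3K4me2, from -148 bp in the window to 1393.5 bp over the gene body. limma called 0 members in each mark under all alternatives but the following. With the TSS at the gene's 5′ end limma called 1 for H3K27ac (BCL2, adjusted p = 0.0472), where 2.88% of 7147 genes were called higher. With the replicate block it called 3 for H3K27ac (10.7% of genes) and 2 for H3K4me2 (6.21% of genes). H3K27ac regions seen in both Corin and neither DMSO library numbered 3 of 36 at a matched number of peaks (4.51% of all regions) and 12 of 63 when presence needed 50% of the region (15.1%), and those seen only in DMSO 0 at a matched number and 0 with the stricter lists. H3K4me2 regions seen only after Corin numbered 2 of 33 with the stricter lists (9.53%) and 2 of 38 when presence needed 50% (13.7%). Leaving out each library gave 8 to 21 such regions for H3K27ac (16.4% to 42.6% of all regions), 2 to 6 for H3K4me2 (12.7% to 22.9%) and 1 to 2 for H3K4me3 (2.31% to 5.73%), and 1 to 4 and 0 to 1 seen only in DMSO for H3K27ac and H3K4me2. The ends of a range of counts and of its range of shares need not come from the same library left out. The cause of these shifts was not tested.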
